A study of Mus musculus with 6 samples.

Results

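The microRNAs described are every listed arm of the precursors miR-126a, miR-199a, miR-199b and miR-214. A precursor is a short RNA hairpin, and its arms are the mature miRNAs cut from its 5′ side (5p) and its 3′ side (3p). Members were chosen by name, with earlier results of these data known. Of the 685 mature miRNAs measured, 8 belong to the group: mmu-miR-126a-3p, mmu-miR-126a-5p, mmu-miR-199a-3p, mmu-miR-199a-5p, mmu-miR-199b-3p, mmu-miR-199b-5p, mmu-miR-214-3p and mmu-miR-214-5p, written below without the mouse prefix mmu. The entries miR-199a-3p and miR-199b-3p share their reads and were counted once, which leaves 7.

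Small RNA was sequenced from N2a cells, a mouse neuroblastoma line, in 3 libraries per group. All cells had first been differentiated with 10 µM retinoic acid over 96 h. The RSL3 group then received 5 µM RSL3 for 24 h, and the DMSO group received the solvent at the same concentration. RSL3 inhibits the lipid peroxide reductase GPX4 and induces ferroptosis, an iron-dependent form of cell death. The model is a single tumour line, no measure of cell death was analysed here, and nothing in the labels says that a group's libraries came from separate cultures. The p-values therefore reflect the spread among these libraries alone, which may be technical.

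A mature miRNA guides the silencing complex to messenger RNAs mainly through its seed, bases 2 to 8 from its 5′ end. As background, miR-126 is the best known miRNA of endothelial cells: its 3p arm promotes vascular endothelial growth factor signalling by repressing Spred1, and its 5p arm supports endothelial proliferation by repressing Dlk1 in mice. The miR-199 and miR-214 miRNAs are known from mesenchyme, fibroblasts and muscle, where miR-199a-2 and miR-214 are made from 1 long RNA, Dnm3os. Among known targets, miR-199a-3p represses Mtor and miR-214-3p represses Ezh2.

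The mature sequences are shown because entries can be told apart only where their sequences differ. The seed is in capitals, 5′ to 3′, and the sequences are from RefSeq on GRCm38.p6, which held 6 of the 8 entries.
miR-126a-3p: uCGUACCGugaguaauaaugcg
miR-199a-3p: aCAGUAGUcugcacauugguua
miR-199b-3p: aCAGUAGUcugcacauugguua
miR-199a-5p: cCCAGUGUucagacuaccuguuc
miR-214-3p: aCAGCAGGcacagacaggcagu
miR-214-5p: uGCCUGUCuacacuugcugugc
The 3p arms of miR-199a and miR-199b are the same 22 bases. The seeds of the printed arms fall into 5 groups, and the shared seed CAGUAGU is that of the identical 3p arms. Among the 554 of 685 entries matched to a mature sequence, 0 entries outside the group carried any of these 5 seeds.

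The hairpins are shown because the balance of their arms is compared further on. Capitals mark the mature arms given above.
Mir126a: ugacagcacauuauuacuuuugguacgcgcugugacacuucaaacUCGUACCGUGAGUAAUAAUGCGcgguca
Mir199a-1: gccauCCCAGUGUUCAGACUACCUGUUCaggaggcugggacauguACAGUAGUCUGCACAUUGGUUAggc
Mir199a-2: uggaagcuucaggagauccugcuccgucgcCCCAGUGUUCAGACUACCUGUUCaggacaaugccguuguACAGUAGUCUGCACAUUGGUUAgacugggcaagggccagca
Mir199b: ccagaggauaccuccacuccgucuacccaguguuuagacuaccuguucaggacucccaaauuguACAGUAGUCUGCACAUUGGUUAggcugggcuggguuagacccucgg
The hairpins of Mir199a-1 and Mir199a-2 hold identical mature arms within different flanks and loops, so a read of either arm does not say which copy made it. A read of the miR-199 3p arm can come from any of the 3 miR-199 hairpins. On the 5p side, the Mir199b hairpin holds a stretch with the same seed as miR-199a-5p that differs from it at 1 of 23 bases, C10U, counted from the 5′ end of miR-199a-5p.

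On GRCm38, Mir126a lies at chr2:26591357-26591429 on the plus strand, inside Egfl7, a gene for a protein that endothelial cells secrete. It is intronic in 8 of the 9 Egfl7 transcripts that span it and overlaps an exon in 1. Mir199a-2 (chr1:162217814-162217923) and Mir214 (chr1:162223368-162223477) lie on the plus strand, 5444 bases apart. Both are in exons of Dnm3os and antisense to introns of Dnm3. Mir199a-1 (chr9:21496495-21496564, minus strand) is antisense to an intron of Dnm2, and Mir199b (chr2:32318460-32318569, plus strand) to an intron of Dnm1. The host RNAs were not measured. The overlapping antisense miRNA miR-126b had no value here.

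The deposited values are signals that the authors named CPM: reads scaled to a common library size and corrected by TMM, a factor that aligns libraries on the bulk of their miRNAs. All listed miRNAs together held 3406276 to 4989380 reads per RSL3 library and 4306460 to 6058006 per DMSO library. One read was worth 0.157 to 0.314 CPM. Mature miRNAs are nearly equal in length, so levels are given without length scaling, and differences in ligation efficiency between sequences were not tested. The 7 members together, with the shared arm counted once, took 0.150% to 0.159% of the reads of RSL3 libraries and 0.152% to 0.179% of those of DMSO libraries. In bulk libraries, fewer cells of a type and less RNA per cell cannot be told apart.

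The members spanned a wide range of levels. In RSL3 libraries the order by mean was miR-126a-3p, miR-199a-3p, miR-199a-5p, miR-126a-5p, miR-199b-5p, miR-214-3p and miR-214-5p, and it was the same in DMSO libraries. In 2 places, neighbours in this order overlapped in only one of the groups. The values of miR-126a-3p and miR-199a-3p did not overlap in RSL3 libraries, and they overlapped in DMSO libraries, where their means were 614 ± 29.8 and 611 ± 97.2 CPM (SD, n = 3). The values of miR-126a-5p and miR-199b-5p overlapped in RSL3 libraries and did not overlap in DMSO libraries. Over all libraries miR-126a-3p was the 92nd most abundant of the 685 entries and miR-214-5p the 467th.

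**Figure D1:**
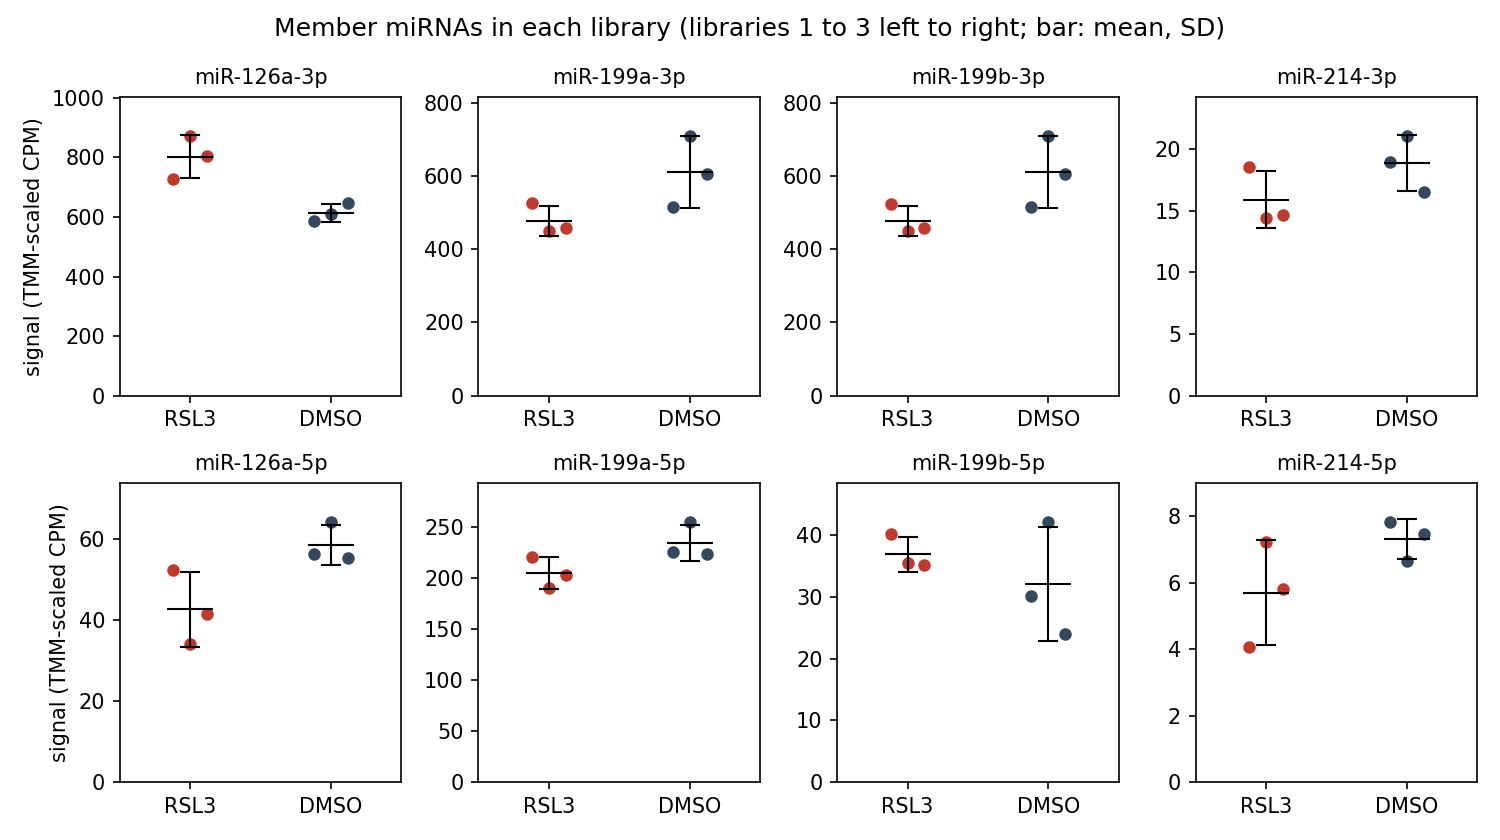
Signal (TMM-scaled CPM, linear axes from 0) of the 8 member entries in each library, with libraries 1 to 3 from left to right in each group; bars give the mean and SD of 3 libraries. The RSL3 points lie above all DMSO points for miR-126a-3p and below them for miR-126a-5p and miR-199a-5p, and the panels of miR-199a-3p and miR-199b-3p repeat the same reads.

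The arms of miR-126a had log2 fold changes of opposite sign, and the groups did not overlap in either arm, but neither passed in limma over all miRNAs. The abundant arm, miR-126a-3p, which represses Spred1, had 728, 873 and 804 CPM in RSL3 libraries 1 to 3, against 586, 611 and 646 CPM in DMSO libraries 1 to 3. The lowest RSL3 library was above the highest DMSO library. The mean was 802 ± 72.5 CPM in RSL3 and 614 ± 29.8 CPM in DMSO libraries (SD, n = 3 each). That is a log2 fold change of 0.38 ± 0.11 (SE; 95% interval 0.14 to 0.62) on the log2(CPM + 1) scale, or 1.30-fold, which did not pass adjustment over all miRNAs (limma adjusted p = 0.095, unadjusted 0.0049). The read-count test of edgeR gave an adjusted p of 0.093, and DESeq2 gave 0.040 with a log2 fold change of 0.39, so the call depended on the tool. Of the 20 alternatives tried, only DESeq2 passed. The largest adjusted p was 0.41, in limma with the replicate block.

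The minor arm, miR-126a-5p, had 52.4, 33.9 and 41.3 CPM in RSL3 libraries 1 to 3, against 56.1, 64.1 and 55.1 CPM in DMSO libraries 1 to 3. All RSL3 values were below all DMSO values, and RSL3 library 1 was close to the DMSO range. The mean was 42.5 ± 9.29 CPM in RSL3 and 58.5 ± 4.95 CPM in DMSO libraries (SD, n = 3 each), a log2 fold change of -0.47 ± 0.17 (SE; 95% interval -0.84 to -0.09; limma adjusted p = 0.17). It rested on 108 to 206 reads per RSL3 library and 280 to 358 reads per DMSO library. The coefficient of variation was 21.9% among RSL3 libraries, where counting error alone gives 7.60%, and 8.48% among DMSO libraries, where it gives 5.69%.

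The share of miR-126a reads on the 5p arm needs no library scaling. It was 6.71% (95% exact binomial interval 5.85% to 7.65%), 3.74% (3.07% to 4.49%) and 4.89% (4.26% to 5.58%) in RSL3 libraries 1 to 3. In DMSO libraries 1 to 3 it was 8.74% (7.89% to 9.64%), 9.50% (8.48% to 10.6%) and 7.87% (7.0% to 8.80%). These intervals cover counting error only. All RSL3 shares were below all DMSO shares. The interval of RSL3 library 1 lay above those of RSL3 libraries 2 and 3 and overlapped that of DMSO library 3.

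On the log2 scale the ratio of 5p to 3p of miR-126a was -4.22 ± 0.44 in RSL3 and -3.37 ± 0.15 in DMSO libraries (SD, n = 3 each). The difference of -0.85 ± 0.22 (SE) ranked 7th by p among 219 precursors with both arms measured. It did not pass adjustment (limma adjusted p = 0.069, unadjusted 0.0022). It passed without RSL3 library 1, the RSL3 library with the largest 5p share (-1.075, limma adjusted p = 0.024). It also passed with a pseudocount of 5 (limma adjusted p = 0.015) and with both arms required to reach 10 CPM (limma adjusted p = 0.022). The adjusted p over the 14 alternatives tried ran from 0.015 to 0.21, and the difference was negative in all 14.

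**Figure D2:**
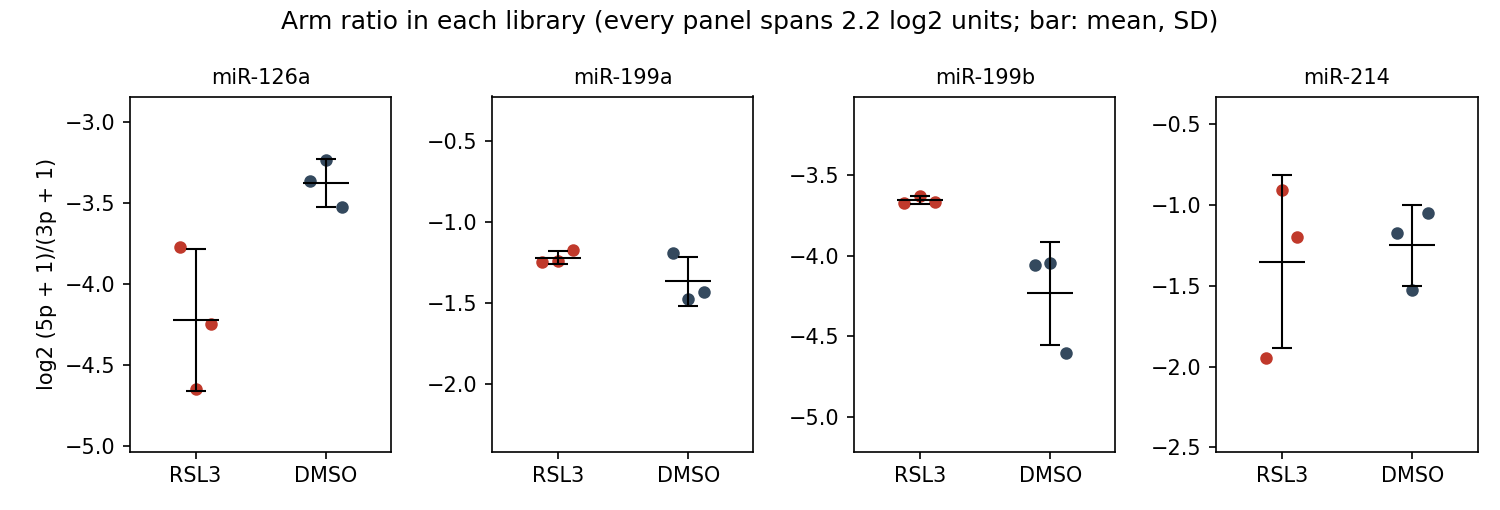
Log2 ratio of 5p to 3p signal, each with 1 CPM added, per library for the 4 member precursors; points are libraries 1 to 3 from left to right, bars give the mean and SD, and every panel spans the same number of log2 units. The RSL3 points lie below the DMSO points for miR-126a and above them for miR-199b, and overlap with them for miR-199a and miR-214.

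Across all precursors, 2.28% passed this arm-ratio test, and 0 of the 4 member precursors did in limma, the only tool run on ratios. At an unadjusted p under 0.05 there were 2 of the 4, miR-126a and miR-199b, against 21.5% of all precursors. The groups did not overlap for the same 2 precursors, against 23.7% of all. The pattern of miR-126a, with a higher 3p arm, a lower 5p arm and no overlap between groups in either, was found in 7 of the 219 precursors, counting the 2 miR-669d copies that share a 5p arm. The others were miR-30e, miR-339, miR-467e, miR-669a-3 and the miR-669d copies. The reverse, with a higher 5p arm, a lower 3p arm and no overlap in either, was found in 1 precursor. All 5 precursors that passed the arm-ratio test shifted toward 3p. The arm ratios did not overlap between groups in 30 precursors toward 3p and 22 toward 5p.

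The shared 3p arm of miR-199a and miR-199b was lower on average after RSL3. As listed under miR-199a-3p it had 525, 451 and 458 CPM in RSL3 libraries 1 to 3, against 516, 711 and 606 CPM in DMSO libraries 1 to 3. The groups overlapped, because DMSO library 1 was below RSL3 library 1. The mean was 478 ± 41.1 CPM in RSL3 and 611 ± 97.2 CPM in DMSO libraries (SD, n = 3 each), a log2 fold change of -0.34 ± 0.13 (SE; 95% interval -0.63 to -0.06; limma adjusted p = 0.19). Without DMSO library 2, the highest of the 6, the log2 fold change was -0.23 (limma adjusted p = 0.499). The entry miR-199b-3p repeated these values: the entries differed by 2 to 3 reads in RSL3 libraries and by 1 read in DMSO libraries, of 1436 to 3295 reads.

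The other miR-199 arms did not pass the test. The arm miR-199a-5p, which is listed apart from miR-199b-5p, had 221, 190 and 203 CPM in RSL3 libraries 1 to 3, against 225, 255 and 224 CPM in DMSO libraries 1 to 3. The groups did not overlap, but the highest RSL3 value and the lowest DMSO value were close together. The log2 fold change was -0.20 ± 0.12 (SE; 95% interval -0.46 to 0.06; limma adjusted p = 0.41). The arm miR-199b-5p had 40.2, 35.5 and 35.1 CPM in RSL3 libraries 1 to 3, against 30.1, 42.2 and 24.0 CPM in DMSO libraries 1 to 3. The RSL3 values lay inside the DMSO range, and the log2 fold change was 0.23 ± 0.20 (SE; 95% interval -0.20 to 0.66; limma adjusted p = 0.58). It was 0.44 without DMSO library 2 (limma adjusted p = 0.34) and 0.05 without DMSO library 3 (limma adjusted p = 0.95).

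Within miR-199, reads of the miR-199b 5p arm made up 15.4%, 15.7% and 14.7% of all miR-199 5p reads in RSL3 libraries 1 to 3, against 11.8%, 14.2% and 9.69% in DMSO libraries 1 to 3. This share was higher in every RSL3 library than in any DMSO library, with RSL3 library 3 and DMSO library 2 close together. The share varied more among DMSO libraries and was not tested. It rests on telling apart reads that differ at 1 base, and whether the authors' matching allowed mismatches is not stated in the sources used. How reads that match both 5p arms were counted is not stated either. The ratio of all miR-199 5p reads to the shared 3p reads used the 3p reads once. It was 0.497, 0.50 and 0.520 in RSL3 libraries 1 to 3, against 0.495, 0.419 and 0.409 in DMSO libraries 1 to 3. The RSL3 libraries were all above the DMSO libraries here, with RSL3 library 1 and DMSO library 1 nearly equal. In the precursor fit, the log2 ratio of 5p to 3p differed by 0.15 ± 0.16 (SE) for miR-199a (limma adjusted p = 0.67) and by 0.58 ± 0.19 (SE) for miR-199b (limma adjusted p = 0.14). The miR-199a difference was 0.23 without DMSO library 1 and 0.09 without DMSO library 2. In the miR-199b ratio most 3p reads can stem from the miR-199a hairpins, so it does not measure the arms of 1 hairpin.

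Both arms of miR-214 were low. The arm miR-214-3p had 18.6, 14.4 and 14.6 CPM in RSL3 libraries 1 to 3, from 46 to 73 reads, against 19.0, 21.1 and 16.5 CPM in DMSO libraries 1 to 3, from 84 to 121 reads. The groups overlapped, with a log2 fold change of -0.24 ± 0.19 (SE; 95% interval -0.64 to 0.17; limma adjusted p = 0.54) that was -0.16 without DMSO library 2. The arm miR-214-5p had 4.07, 7.22 and 5.82 CPM in RSL3 libraries 1 to 3, from 16 to 29 reads, against 7.84, 6.66 and 7.48 CPM in DMSO libraries 1 to 3, from 30 to 50 reads. Its groups overlapped as well, with a log2 fold change of -0.34 ± 0.24 (SE; limma adjusted p = 0.48). It was -0.15 without RSL3 library 1 and -0.50 without RSL3 library 2 (limma adjusted p = 0.75 and 0.32). Counting error alone gives a coefficient of variation of 21.0% for this arm among RSL3 libraries and 15.9% among DMSO libraries, against 27.7% and 8.24% measured, so small changes were not detectable at this depth.

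The arm ratio of miR-214 was -1.35 ± 0.54 in RSL3 and -1.25 ± 0.25 in DMSO libraries on the log2 scale (SD, n = 3 each; difference -0.10 ± 0.31 SE; limma adjusted p = 0.91), and the difference was 0.20 without RSL3 library 1. Although miR-199a-2 and miR-214 share the transcript Dnm3os, their arms differed widely in reads. There were 28.3, 31.2 and 31.3 reads of miR-199a-3p per read of miR-214-3p in RSL3 libraries 1 to 3, against 27.2, 33.7 and 36.7 in DMSO libraries 1 to 3. This ratio overlapped between groups, and the miR-199a-3p reads in it include those of the other miR-199 hairpins.

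The ratio of miR-126a-3p to miR-199a-3p reads, which is free of library scaling, was 1.39, 1.94 and 1.75 in RSL3 libraries 1 to 3, against 1.14, 0.860 and 1.06 in DMSO libraries 1 to 3. It was higher in every RSL3 library than in any DMSO library. The ratio of miR-126a-5p to miR-199a-3p reads was 0.0997, 0.0752 and 0.0902 in RSL3 libraries 1 to 3, against 0.109, 0.0903 and 0.0909 in DMSO libraries 1 to 3, and the groups overlapped. These ratios were chosen after the values were seen and were not tested.

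Of the 7 members 0 passed in limma and 0 in edgeR, where 0.751% and 0.901% of the 666 miRNAs tested passed. DESeq2 called 1 of the 6 members to which it gave an adjusted p, against 10.5% of all miRNAs with one. At an unadjusted p under 0.05 in limma, 1 member was higher (miR-126a-3p) and 2 were lower (miR-126a-5p and the miR-199 3p arm), against 17.3% of all miRNAs in either direction. The groups did not overlap in 3 of the 7, against 24.3% of all tested miRNAs. Of these, 1 was higher, against 12.3% of all, and 2 were lower, against 12% of all. The log2 fold changes of the 7 had a median of -0.24, against 0.00134 over all tested miRNAs, with 2 positive and 5 negative.

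**Figure D3:**
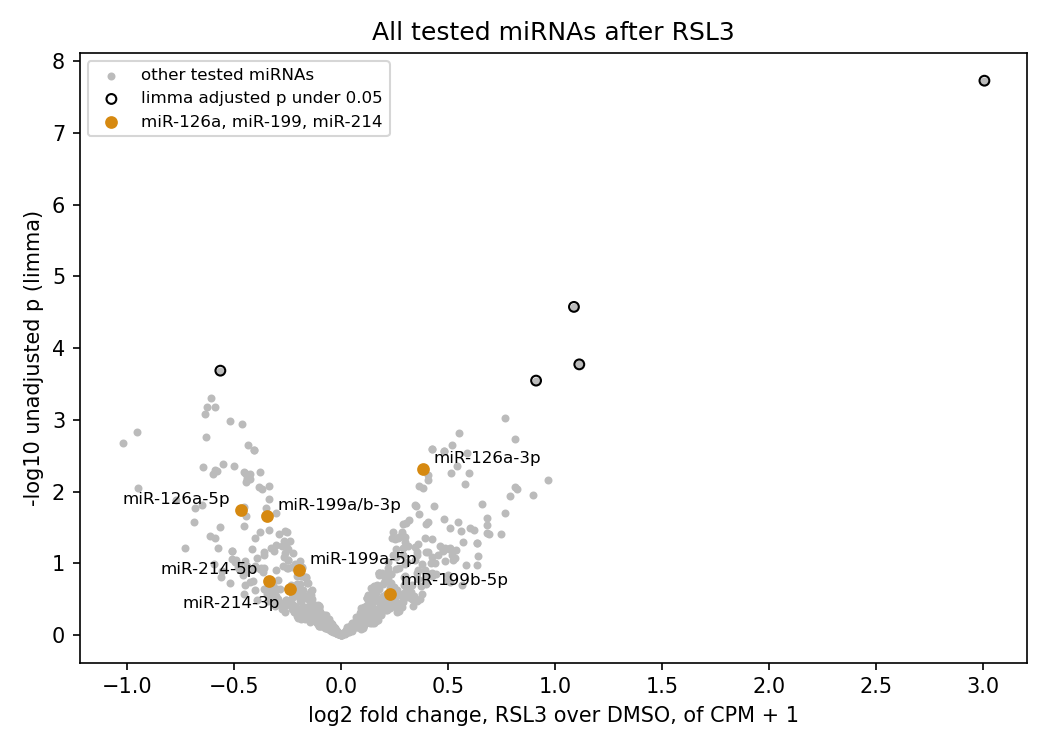
Log2 fold change (RSL3 over DMSO, of CPM + 1) against -log10 of the unadjusted limma p for the 666 tested miRNAs; filled coloured points are the 7 members and open black circles mark the 5 miRNAs with an adjusted p under 0.05. The members lie among the grey points, with miR-126a-3p highest among them at 0.38, and 0 of the 7 is circled.

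Other miRNAs were ranked by how closely their values followed each member over the 6 libraries, by the root-mean-square difference of log2(CPM + 1) profiles centred on their own mean. This is a description over 6 libraries and has no test. The closest profile to any member was that of let-7c-5p, a growth-restraining miRNA, to miR-199a-3p, with a difference of 0.0204 log2 units, where the median over 410 candidates was 0.294. The next closest to miR-199a-3p were miR-344b-3p (0.0560) and miR-145a-3p (0.0814), a smooth muscle miRNA. For miR-199a-5p they were miR-345-3p (0.0358), the collagen-repressing miR-29a-3p (0.0362) and miR-181d-5p (0.0408).

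The profiles nearest to miR-126a-3p were miR-182-5p (0.0840), miR-582-3p (0.0911) and miR-344c-3p (0.0914), and those nearest to miR-126a-5p were miR-151-5p (0.0864), miR-145a-5p (0.0921) and miR-297a-5p (0.102). None of these 6 was shared between the arms of miR-126a, which follows from the opposite log2 fold changes of the arms given above. Nearest to miR-214-3p were miR-501-3p (0.0643), miR-1187 (0.0800) and miR-29a-3p (0.0873). Distances were wider for miR-199b-5p, with miR-5113 at 0.130, miR-3068-5p at 0.133 and miR-103-3p at 0.139.

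**Figure D4:**
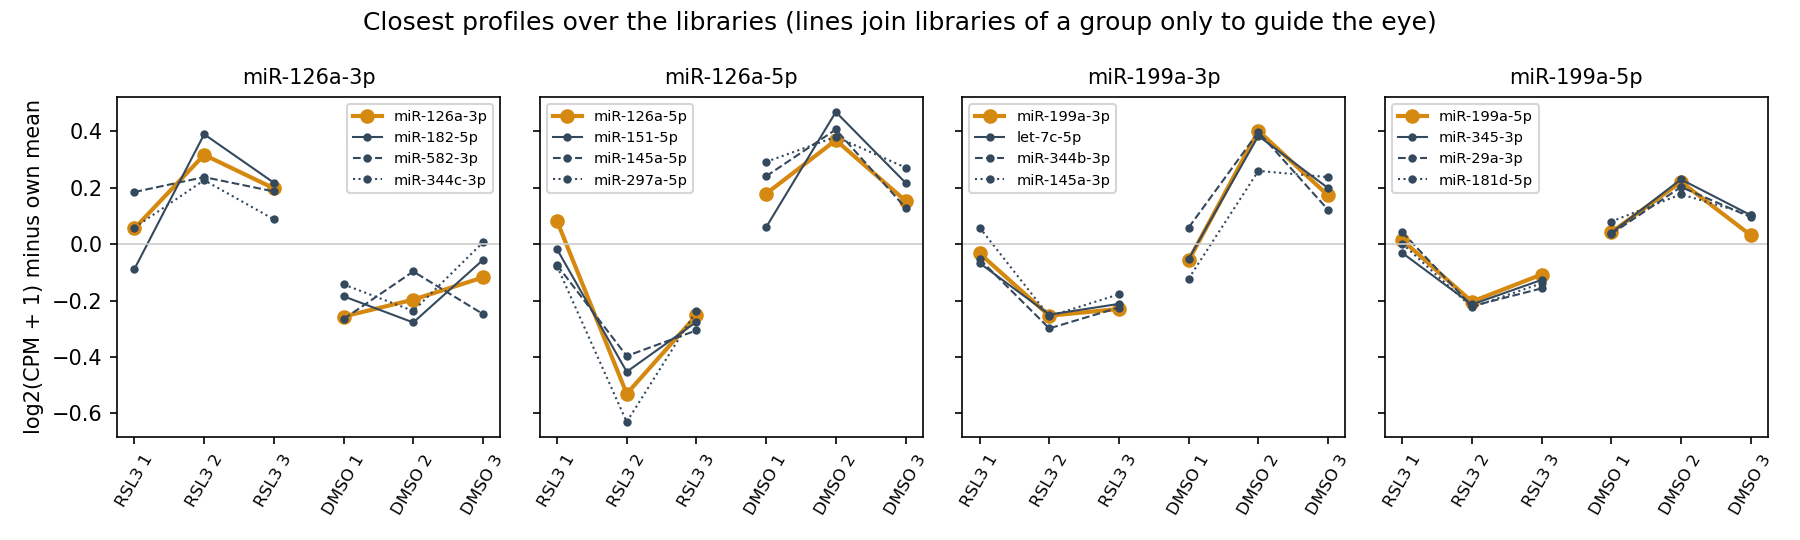
Log2(CPM + 1) minus the miRNA's own mean over the 6 libraries, for 4 members (thick lines) and the 3 miRNAs closest to each (thin lines), with RSL3 libraries on the left and DMSO libraries on the right of each panel. In the miR-199a-3p panel let-7c-5p runs along the member, at a root-mean-square difference of 0.0204.

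Lists of other miRNAs from the same settings were described beside the members, which were left out of them. Over all tested miRNAs, 17.3% had an unadjusted p under 0.05 in limma. DESeq2 called 10.5% of all miRNAs to which it gave an adjusted p. Of 20 tested angiomiRs, miRNAs that act on blood vessel growth, 0 passed in limma or edgeR. At an unadjusted p under 0.05 in limma, 3 were higher and 0 lower. The 3 were miR-24-1-5p, miR-23a-3p and miR-24-3p, with log2 fold changes of 0.51, 0.38 and 0.29. DESeq2 called 1 higher, miR-24-1-5p (DESeq2 adjusted p = 0.040, limma adjusted p = 0.095). The median log2 fold change of the list was 0.12. The most abundant were miR-27b-3p, at 36290 ± 4810 CPM in RSL3 and 34790 ± 1746 CPM in DMSO libraries (SD, n = 3 each), and miR-23b-3p, at 2106 ± 206 CPM in RSL3 and 2164 ± 43.2 CPM in DMSO libraries. The list summed to 39830 to 49660 CPM in RSL3 and 40610 to 43910 CPM in DMSO libraries, which overlap. Most of each sum was miR-27b-3p.

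Of 15 tested fibroblast and smooth muscle miRNAs, 0 passed in limma or edgeR. At an unadjusted p under 0.05 in limma, 1 was higher (miR-29c-5p) and 2 lower (miR-145a-5p and miR-22-3p). Over all tested miRNAs, 17.3% reached it in either direction. DESeq2 called 1 lower, miR-145a-5p (log2 fold change -0.51, DESeq2 adjusted p = 0.014, limma adjusted p = 0.063). The list had 5 positive and 10 negative log2 fold changes, with a median of -0.07. The most abundant were miR-21a-5p, at 39490 ± 3760 CPM in RSL3 and 32050 ± 2817 CPM in DMSO libraries (SD, n = 3 each), and miR-143-3p, at 35520 ± 603 CPM in RSL3 and 35570 ± 1563 CPM in DMSO libraries. The list summed to 73460 to 82400 CPM in RSL3 and 66240 to 74140 CPM in DMSO libraries, with overlap. The part of such cells or their RNA in the member values was not tested.

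Neuronal miRNAs, the list that goes with the labelled cell type, had 21 tested entries, and the cell type itself was not tested. The list summed to 20560 to 26280 CPM in RSL3 and 22350 to 26620 CPM in DMSO libraries, which overlap. Both ranges lay below those of the fibroblast and smooth muscle list, whose sums were mostly miR-21a-5p and miR-143-3p. The lists hold different miRNAs, so their sums do not rank cell types. The most abundant were miR-218-5p, at 15090 ± 1450 CPM in RSL3 and 18270 ± 1731 CPM in DMSO libraries (SD, n = 3 each), and miR-9-5p, at 4259 ± 962 CPM in RSL3 and 3240 ± 723 CPM in DMSO libraries. In limma and edgeR 0 of the 21 passed, and in DESeq2 0 of those to which it gave an adjusted p. In limma 1 was higher and 1 lower at an unadjusted p under 0.05, against 17.3% of all tested miRNAs. The median log2 fold change was 0.02.

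Of the markers of 4 other cell types, 0 passed in limma or edgeR, and in DESeq2 0 of those to which it gave an adjusted p. Each of these lists held entries to which DESeq2 gave none. The counts at an unadjusted p under 0.05 in limma given here stand beside 17.3% of all tested miRNAs in either direction. Blood miRNAs summed to 139 to 207 CPM in RSL3 and 124 to 156 CPM in DMSO libraries, with 1 of 6 higher at an unadjusted p under 0.05. Their most abundant entries were miR-451a (80.9 ± 29.9 CPM in RSL3 and 74.6 ± 14.8 CPM in DMSO libraries) and miR-486b-5p (35.1 ± 4.54 CPM in RSL3 and 29.7 ± 2.63 CPM in DMSO libraries). Epithelial miRNAs summed to 365 to 450 CPM in RSL3 and 399 to 463 CPM in DMSO libraries, with 0 of 5 at an unadjusted p under 0.05. Most of that sum was miR-203-3p (391 ± 46.8 CPM in RSL3 and 410 ± 34.7 CPM in DMSO libraries), followed by miR-200b-3p (8.41 ± 1.88 CPM in RSL3 and 8.55 ± 1.91 CPM in DMSO libraries). Muscle miRNAs summed to 123 to 186 CPM in RSL3 and 156 to 276 CPM in DMSO libraries, with 1 of 4 lower at an unadjusted p under 0.05. They were led by miR-1a-3p (95.6 ± 29.0 CPM in RSL3 and 129 ± 48.5 CPM in DMSO libraries) and miR-499-5p (57.7 ± 3.46 CPM in RSL3 and 64.7 ± 16.2 CPM in DMSO libraries). Glial miRNAs summed to 198 to 249 CPM in RSL3 and 193 to 234 CPM in DMSO libraries, with 0 of 5 at an unadjusted p under 0.05. They were led by miR-219a-2-3p (144 ± 27.8 CPM in RSL3 and 139 ± 21.5 CPM in DMSO libraries) and miR-219a-1-3p (31.7 ± 5.79 CPM in RSL3 and 27.5 ± 1.72 CPM in DMSO libraries).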

How the data were processed

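Cutadapt, Bowtie and edgeR were used with the build GRCm38, per the submitters' processing notes; their settings and the handling of multiply matching reads are not stated in the sources used. Per the labels, small RNAs of 15 to 35 nt were selected and run for 50 cycles on an Illumina sequencer. The deposited signal, named CPM by the authors, came in whole multiples of a step, 1 per library, from which reads were recovered (100% of values whole within 0.01). It equalled TMM-scaled CPM of those reads; plain CPM had been assumed in the plan. A count of 0 allows up to 3 reads, 0.470 to 0.941 CPM.

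The test used limma 3.58.1 in R 4.3.3 on log2(CPM + 1), with a variance trend, two-sided, with Benjamini-Hochberg adjustment at 0.05 over the 666 miRNAs that reached 1 CPM in at least 3 libraries (19 did not). Arm ratios were fitted the same way over 219 precursors. The alternatives were count tests with edgeR 4.0.16 (its quasi-likelihood test) and DESeq2 1.42.0, other pseudocounts, filters, scalings and variance models, the replicate block and leaving out each library. The fits across miRNAs and across precursors were tested on simulated data with known changes. The members and lists were chosen with earlier results of these data known. Named besides the members were entries with a shared seed, within 10 kb, or among the 3 closest profiles of mean 10 CPM or more, and the 2 most abundant of each list. In the angiomiR and the fibroblast and smooth muscle lists, entries at an unadjusted limma p under 0.05 were named as well. Positions come from RefSeq and GENCODE M21, both on GRCm38. Replicates differed by more than counting noise (chi-square per degree of freedom 82.8 to 292).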

Additional observations from a re-analysis of the deposited data

How the results depend on the processing

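For the 7 members the log2 fold change kept its sign under every alternative that gave a value (the 10 CPM filter gave none for miR-214-5p or the miR-214 arm ratio). DESeq2 called miR-126a-3p (log2 fold change 0.39); the other member calls did not change. The arm ratio of miR-126a passed with a pseudocount of 5 (-0.81), with a 10 CPM filter (-0.85) and without RSL3 replicate 1, and ran from -1.075 to -0.64 with 1 library left out. That of miR-214 ran from -0.32 to 0.20 and turned positive without RSL3 replicate 1. Over all miRNAs, 4 higher and 1 lower in limma, the counts were 1 higher and 0 lower without a variance trend, 2 higher in plain CPM without TMM, 3 lower with a 10 CPM filter, 0 lower with median centring, 12 lower without the 5 most abundant miRNAs, 2 lower in edgeR, 19 higher and 21 lower in DESeq2 (which gave 284 miRNAs no adjusted p), and 1 to 14 higher and 0 to 12 lower with 1 library left out. The arm-ratio test called 5 precursors as reported, 16 with a pseudocount of 5, 11 with a 10 CPM filter, 3 with arms of exactly the same stem, and 1 to 4 with 1 library left out. In each case the cause was not tested. With the replicate block there were 1 higher and 0 lower miRNAs. Same-numbered libraries did not deviate together (correlations of -0.347, -0.330 and -0.186 for numbers 1 to 3), and no library correlated best with its own number, so the numbers were not taken as pairs. Pairing arms by exact stem and all alternatives for miR-199b-5p, miR-214-5p and the miR-199b and miR-214 arm ratios were added after seeing the data. With 16 to 50 reads per library, counting error limits miR-214-5p most.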
